A study of Mus musculus with 12 samples.

Results

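The 10 genes described here encode integrin subunits of the lung matrix compartment (Itgav, Itga5, Itga11, Itgb1, Itgb5 and Itgb8) and of leukocytes (Itgam, Itgal, Itgb2 and Itga4). They were chosen by name, and each was read from the array transcript cluster whose only gene symbol is that gene. Each gene had 1 such cluster, so the 10 clusters are the whole group, out of 23410 clusters that carry a gene symbol. Integrins are receptors of the cell surface, each made of an alpha and a beta subunit, that bind matrix proteins or counter-receptors on other cells and link them to the actin cytoskeleton. In the lung, integrins that hold Itgav bind fibronectin and vitronectin and, with several of their beta partners, release TGF-beta from its latent complex, which is a step in fibrosis. On leukocytes, the beta subunit Itgb2 pairs with Itgam or Itgal, and these receptors together with Itga4 carry cells out of the blood into inflamed tissue.

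Lung RNA of 12 mice, in 4 groups of 3, was hybridised to Affymetrix MoGene 1.0ST v1 arrays, with a separate array for each mouse. Bleomycin-treated Fra-1-/- mice (KOT, animals 72, 80 and 81) and PBS-treated Fra-1-/- mice (KOC, animals 53, 55 and 67) stood beside bleomycin-treated Fra-1+/+ mice (WTT, animals 160, 161 and 164) and PBS-treated Fra-1+/+ mice (WTC, animals 76, 157 and 158). Mice of every group had a mixed C57/129S background, were labelled female and 2 months old, and were studied 5 days after 30 µL of PBS, alone or with 0.075 U of bleomycin, was placed in the trachea. In the study's methods, which give a somewhat older range in weeks, the Fra-1-/- mice carry floxed Fra-1 alleles deleted by a Cre under the Meox2 promoter, which acts in the embryo proper, and the Fra-1+/+ mice are floxed mice without Cre. Bleomycin injures the alveolar epithelium and is the usual agent for fibrosis in the mouse lung, and Fra-1, the product of Fosl1, is a subunit of the transcription factor AP-1. The comparisons asked how the integrin genes differ after bleomycin in each genotype, and how the genotypes differ under each treatment.

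All values are log2 array levels, on which a difference of 1 is a doubling, and the level of one gene cannot be set against that of another because each cluster has its own probes. Array medians lay between 7.14 and 7.22, and the mean correlation of an array with the others of its group lay between 0.990 and 0.994. Levels of Xist (4.47 to 4.94) and the mean of 3 Y-linked genes (8.08 to 8.34) did not match the labelled sex in 12 of 12 arrays. The cluster of the targeted gene, Fosl1, read 7.28 to 7.33 in KOT lungs, 6.26 to 6.68 in KOC lungs, 7.81 to 8.32 in WTT lungs and 6.37 to 6.86 in WTC lungs, and since the place of its probes relative to the deleted part is not known here, it does not check the genotype labels. Unsorted tissue was measured, of the left lung in the study's methods, so fewer cells of a type and less RNA per cell cannot be told apart in any result.

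A RefSeq promoter window (mouse build GRCm38.p6) was found for 8 of the 10 genes, all but Itgal and Itgb2, and the 250 bases before the annotated start were read. The windows of Itgav, Itga5 and Itgam are shown because these genes were higher after bleomycin in both genotypes. They lie at chr2:83724147-83724396 on the plus strand, chr15:103366792-103367041 on the minus strand and chr7:128062390-128062639 on the plus strand. Sequences run 5′ to 3′, and capitals mark the core bound by the myeloid factor PU.1, written GAGGAA, or TTCCTC where it lies on the other strand.
Itgav: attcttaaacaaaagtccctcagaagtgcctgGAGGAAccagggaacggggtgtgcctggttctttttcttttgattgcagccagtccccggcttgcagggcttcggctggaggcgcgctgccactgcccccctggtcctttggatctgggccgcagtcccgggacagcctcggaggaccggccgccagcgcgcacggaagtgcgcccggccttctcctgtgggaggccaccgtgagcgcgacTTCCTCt
Itga5: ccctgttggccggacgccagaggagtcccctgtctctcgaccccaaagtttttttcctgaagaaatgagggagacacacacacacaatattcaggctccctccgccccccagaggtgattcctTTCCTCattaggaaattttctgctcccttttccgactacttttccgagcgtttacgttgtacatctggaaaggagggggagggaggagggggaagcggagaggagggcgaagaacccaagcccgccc
Itgam: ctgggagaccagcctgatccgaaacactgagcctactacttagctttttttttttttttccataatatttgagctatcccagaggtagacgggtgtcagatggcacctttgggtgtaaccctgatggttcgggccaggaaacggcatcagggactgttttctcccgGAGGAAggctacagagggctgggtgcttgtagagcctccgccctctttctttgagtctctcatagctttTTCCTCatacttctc
The core begins 218 and 7 bases before the start in Itgav, 127 bases before it in Itga5, and 84 and 15 bases before it in Itgam. It also occurs 38 bases before the start of Itga11 and 9 bases before that of Itgb1, so 5 of the 8 windows hold it, against 23.3% of 32851 windows of the same length. The AP-1 site, searched as TGANTCA on both strands, is in 0 of the 8 windows and in 6.75% of all. These counts describe letters in short windows only.

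After bleomycin, Itgam, Itga5, Itgb2 and Itgav were higher in both genotypes, while Itgb8 and Itgb5 passed the test only between the Fra-1+/+ groups and Itgb1, Itga4, Itgal and Itga11 passed in neither. In KOT against KOC lungs, 4 of the 10 genes were higher and 0 lower at an adjusted p below 0.05 (limma, Benjamini-Hochberg over 23410 clusters), where 7.42% of all clusters were higher and 7.98% lower. In WTT against WTC lungs, 6 of 10 were higher and 0 lower, where 10.2% of all clusters were higher and 11.3% lower. At an unadjusted p below 0.05, 5 members were higher in KOT lungs (14.5% of all clusters, with 14.3% lower) and 7 in WTT lungs (17.1%, with 16.5% lower). By the local-pooled-error test, the study's own, 3 were higher in KOT lungs (4.44% of all clusters, with 3.63% lower) and 4 in WTT lungs (3.45%, with 4.47% lower). No member was lower by either count. The median difference over the members was 0.31 in Fra-1-/- mice and 0.53 in Fra-1+/+ mice, beside 0.02 over all clusters in each. Itgam, Itgav, Itgb5 and Itgb8 stand in the study's own gene tables, which were drawn from these arrays, so their directions are not independent evidence.

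**Figure D1:**
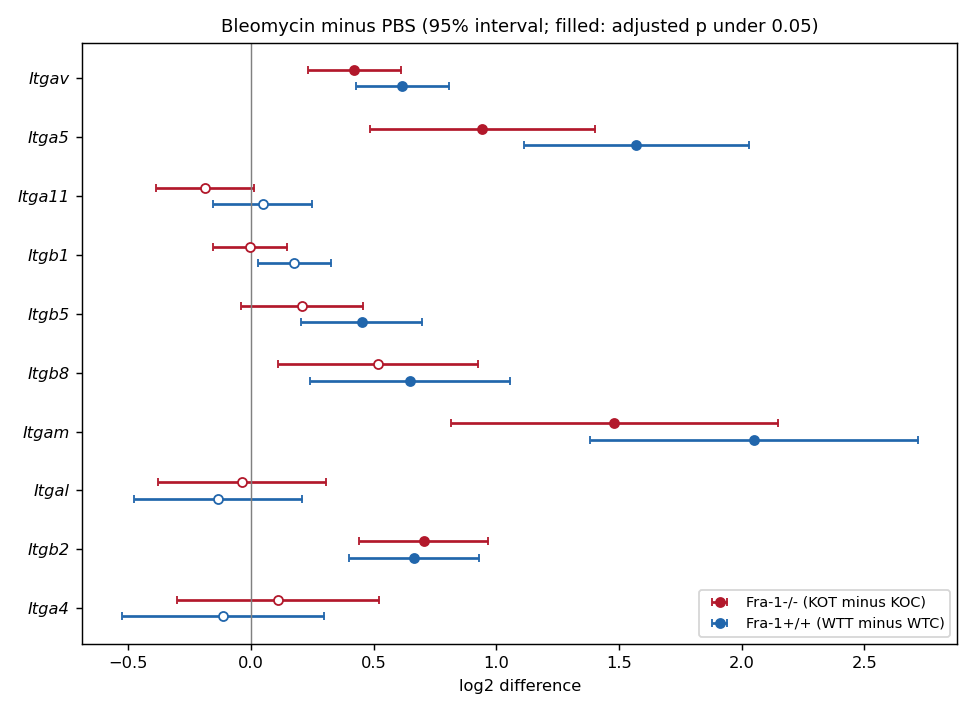
Log2 difference after bleomycin for each integrin gene (rows), KOT minus KOC above WTT minus WTC, with 95% intervals; filled points have an adjusted p below 0.05 (limma). Itgam (1.48 and 2.05) and Itga5 (0.94 and 1.57) lie farthest to the right, and the intervals of Itga4, Itgal and Itga11 cover 0 in both genotypes.

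Itgam, the alpha subunit CD11b of the complement receptor of neutrophils and macrophages (transcript cluster 10557862), had the largest difference of the 10 genes in both genotypes. It read 9.38, 8.80 and 9.90 in KOT lungs, against 7.95, 7.90 and 7.78 in KOC lungs. It read 9.28, 10.40 and 10.44 in WTT lungs, against 7.91, 7.86 and 8.21 in WTC lungs. Every bleomycin lung was above every PBS lung, and the spread was wider after bleomycin, with animal 80 lowest among KOT mice and animal 160 lowest among WTT mice. The difference was 1.48 ± 0.31 (SE, n = 3 per group, adjusted p = 0.00782, limma), or 2.79-fold, between KOT and KOC, and 2.05 ± 0.31 (adjusted p = 0.00114), or 4.14-fold, between WTT and WTC. Both calls held when any 1 mouse was left out.

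Itgb2, the beta subunit CD18 shared by Itgam and Itgal (transcript cluster 10364262), was higher by nearly the same amount in each genotype. Its level was 10.76, 10.87 and 10.97 in KOT lungs, against 10.16, 10.02 and 10.31 in KOC lungs. Its level was 10.69, 11.01 and 11.12 in WTT lungs, against 10.35, 10.12 and 10.36 in WTC lungs. No bleomycin lung overlapped the PBS lungs of its genotype, and the differences were 0.70 ± 0.12 in Fra-1-/- mice (adjusted p = 0.00318, limma) and 0.66 ± 0.12 in Fra-1+/+ mice (adjusted p = 0.00303). The other 2 leukocyte subunits did not share this pattern. Itgal, the CD11a subunit of lymphocytes and other leukocytes (transcript cluster 10557591), ranged over 9.05 to 9.22 in KOT and 9.05 to 9.34 in KOC lungs, and over 8.89 to 9.47 in WTT and 8.99 to 9.47 in WTC lungs. Its differences were -0.04 (95% interval -0.38 to 0.31) and -0.13 (-0.48 to 0.21). Itga4, the CD49d subunit that binds VCAM-1 and fibronectin (transcript cluster 10473125), spanned 9.83 to 10.02 in KOT, 9.60 to 10.15 in KOC, 9.74 to 9.84 in WTT and 9.41 to 10.25 in WTC lungs. Its groups overlapped within both genotypes, at differences of 0.11 (-0.30 to 0.52) and -0.11 (-0.53 to 0.30).

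**Figure D2:**
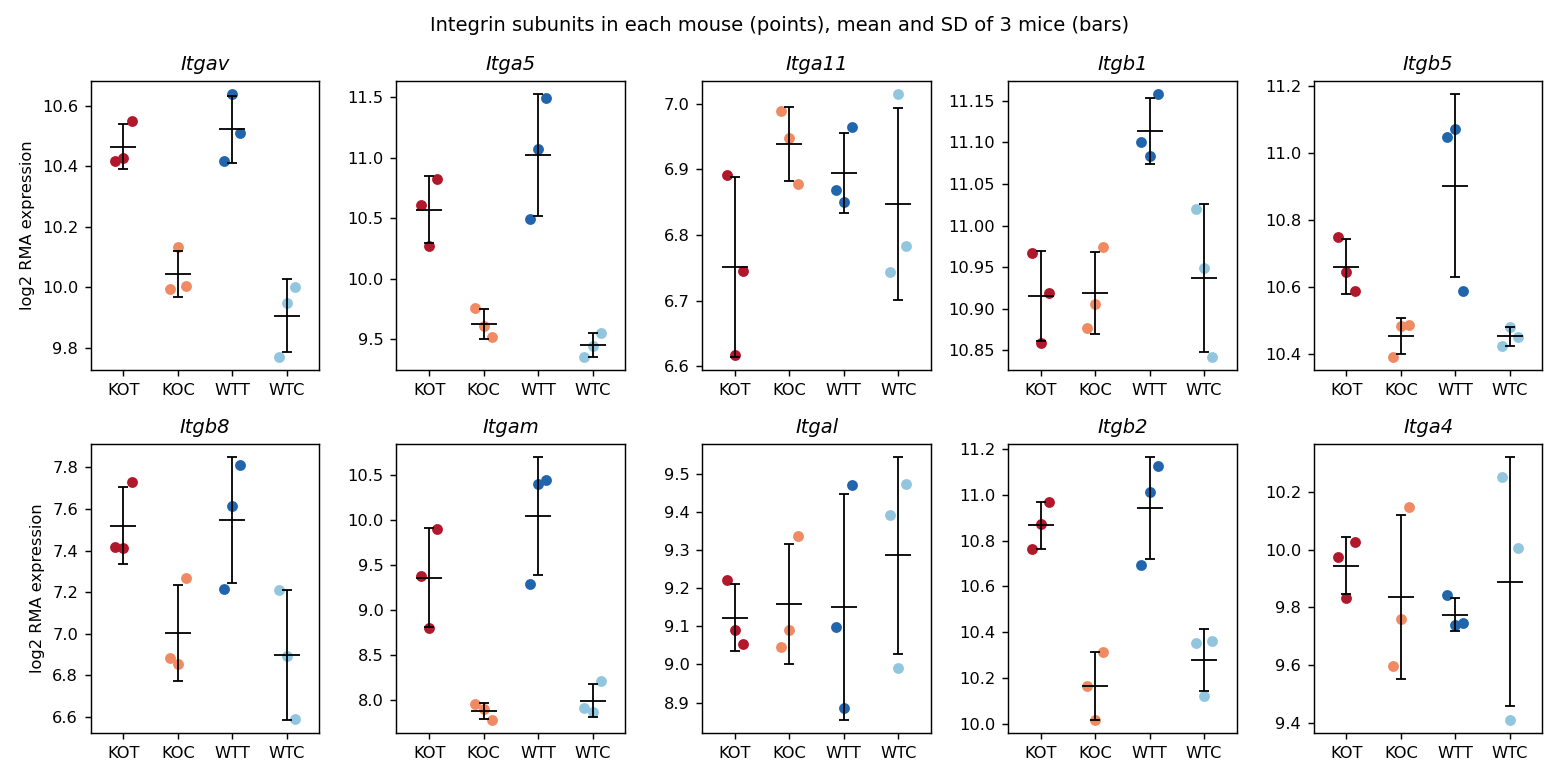
Log2 array level of each integrin gene (1 panel per gene, y axes differ) in KOT, KOC, WTT and WTC lungs, 1 point per mouse, with a bar at the group mean. Itgam, Itga5, Itgb2 and Itgav show every bleomycin lung above the PBS lungs of the same genotype, and Itgal and Itga4 show overlap.

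Among the matrix subunits, Itga5, which pairs with Itgb1 as the main fibronectin receptor (transcript cluster 10433114), differed most. It read 10.61, 10.27 and 10.83 in KOT lungs, against 9.76, 9.61 and 9.52 in KOC lungs. It read 10.50, 11.07 and 11.50 in WTT lungs, against 9.36, 9.45 and 9.55 in WTC lungs. The groups did not overlap in either genotype, and the 3 WTT lungs were spread over a full log2 unit. The difference was 0.94 ± 0.21 (adjusted p = 0.0111, limma), or 1.92-fold, between KOT and KOC, and 1.57 ± 0.21 (adjusted p = 0.000696), or 2.97-fold, between WTT and WTC. Without KOT animal 81, the Fra-1-/- difference was 0.81 with an adjusted p of 0.0539.

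Itgav, the alpha subunit of the vitronectin receptors that bind latent TGF-beta (transcript cluster 10473281), had smaller differences with little spread between mice. Its level was 10.42, 10.43 and 10.55 in KOT lungs, against 9.99, 10.13 and 10.01 in KOC lungs. Its level was 10.42, 10.64 and 10.51 in WTT lungs, against 9.77, 9.95 and 10.001 in WTC lungs. All bleomycin lungs were above all PBS lungs, by 0.42 ± 0.09 in Fra-1-/- mice (adjusted p = 0.00759, limma) and by 0.62 ± 0.09 in Fra-1+/+ mice (adjusted p = 0.000836). By the local-pooled-error test, at its stricter limit of 0.01, the adjusted p of Itgav was 0.144 and 0.0278.

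Itgb5 and Itgb8 are beta partners of Itgav, and Itgb8 is a known activator of latent TGF-beta. Itgb5 (transcript cluster 10435305) read 10.75, 10.64 and 10.59 in KOT lungs, against 10.39, 10.48 and 10.49 in KOC lungs. It read 11.05, 11.07 and 10.59 in WTT lungs, against 10.42, 10.48 and 10.45 in WTC lungs. WTT animal 164 lay at the level of the KOT lungs and below the other 2 WTT lungs, and no bleomycin lung overlapped the PBS lungs of its genotype. The difference was 0.21 ± 0.11 between KOT and KOC (95% interval -0.04 to 0.45, adjusted p = 0.26, limma) and 0.45 ± 0.11 between WTT and WTC (0.20 to 0.70, adjusted p = 0.0155). The call between WTT and WTC was lost without WTT animal 161 (0.37, adjusted p = 0.0642), in a fit to the 6 Fra-1+/+ arrays alone (adjusted p = 0.0625) and by the local-pooled-error test (0.0169 at a limit of 0.01).

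Itgb8 (transcript cluster 10403229) read 7.42, 7.41 and 7.73 in KOT lungs, against 6.88, 6.86 and 7.27 in KOC lungs. It read 7.22, 7.61 and 7.81 in WTT lungs, against 7.21, 6.89 and 6.59 in WTC lungs. KOC animals 53 and 55 and WTC animals 157 and 158 lay below the lowest array median (7.14). Whether Itgb8 was detected above background in those lungs was not tested. The groups did not overlap, but by only a narrow gap, with WTT animal 160 next to WTC animal 76. Itgb8 was 0.52 ± 0.19 higher in KOT than in KOC lungs without passing the test (95% interval 0.11 to 0.93, adjusted p = 0.086, limma), and 0.65 ± 0.19 higher in WTT than in WTC lungs (0.24 to 1.06, adjusted p = 0.0284). The call between WTT and WTC was lost without WTT animal 161 (0.62, adjusted p = 0.0851), WTT animal 164 (0.52, 0.109), WTC animal 157 (0.65, 0.0741) or WTC animal 158 (0.49, 0.109), and in the fits to 6 arrays (0.0621) or to all clusters (0.0507). The Fra-1-/- differences passed with arrays weighted by quality for Itgb8 (adjusted p = 0.0118) and, barely, for Itgb5 (0.0496), and in the fit to the 6 Fra-1-/- arrays for Itgb8, just below the threshold (0.05 after rounding).

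Itgb1, the common beta partner of the collagen and fibronectin receptors (transcript cluster 10576661), read 10.97, 10.86 and 10.92 in KOT lungs, against 10.88, 10.91 and 10.97 in KOC lungs. It read 11.10, 11.08 and 11.16 in WTT lungs, against 11.02, 10.95 and 10.84 in WTC lungs. The Fra-1-/- groups overlapped and the Fra-1+/+ groups did not, at differences of -0.0036 (95% interval -0.15 to 0.15, adjusted p = 0.982, limma) and 0.18 (0.03 to 0.33, adjusted p = 0.0921). Itga11, a collagen receptor subunit of fibroblasts (transcript cluster 10586079), ranged over 6.62 to 6.89 in KOT, 6.88 to 6.99 in KOC, 6.85 to 6.96 in WTT and 6.74 to 7.01 in WTC lungs. All its values lay below the lowest array median (7.14), and whether this cluster was detected above background was not tested. The groups of Itga11 overlapped, with differences of -0.19 (-0.39 to 0.01, adjusted p = 0.206) between KOT and KOC and 0.05 (-0.15 to 0.25, adjusted p = 0.773) between WTT and WTC. Over the 10 genes, the bleomycin and PBS groups did not overlap, with bleomycin higher, for 6 genes in Fra-1-/- mice and 7 in Fra-1+/+ mice, where 18.8% and 18.3% of all clusters had that arrangement.

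Between the genotypes, none of the 10 genes passed the test with limma. In PBS-treated lungs (KOC against WTC), 0 of 10 passed, where 0.0128% of all clusters did, and 0 passed at an unadjusted p below 0.05 (2.94% of clusters higher and 6.88% lower) or by the local-pooled-error test (0.346% higher and 1.44% lower). The groups overlapped for all 10, where 16.3% of clusters did not overlap in one direction or the other, and the median difference was -0.01, beside -0.01 over all clusters. The intervals still leave room for differences, being narrowest for Itgb1 (-0.17 to 0.13) and widest for Itgam (-0.78 to 0.55).

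In bleomycin-treated lungs (KOT against WTT), 0 of 10 passed with limma, where 0.0427% of all clusters did. At an unadjusted p below 0.05, Itgb1 and Itgam were lower in KOT lungs, 2 of 10 where 6.32% of clusters were lower and 4.27% higher. Itgb1 was lower in each KOT lung (10.86 to 10.97) than in each WTT lung (11.08 to 11.16), by -0.20 on the log2 scale (95% interval -0.35 to -0.05, adjusted p = 0.359, limma), and it was the only 1 of the 10 genes whose groups did not overlap, where 8.8% of clusters lay apart in that direction. For Itgam, KOT lungs (8.80 to 9.90) and WTT lungs (9.28 to 10.44) overlapped at a difference of -0.68 ± 0.31 (-1.35 to -0.02, adjusted p = 0.461, limma), which was -1.06 without WTT animal 160 and -0.40 without KOT animal 80. By the local-pooled-error test, which takes its error from all clusters of like level and not from the mice of that gene alone, the difference of the Itgam medians was -1.02 on the log2 scale with an adjusted p of 4.29e-05, and Itgam was the 1 member called, where 0.15% of clusters were called lower and 0.555% higher. Of the genes that missed both, Itga5 (-0.45, -0.91 to 0.0072, adjusted p = 0.479) and Itgb5 (-0.24, -0.49 to 0.0054, adjusted p = 0.481) had the largest differences, and that of Itga5 was -0.71 without WTT animal 160 and -0.21 without WTT animal 164. The other 6 genes lay between -0.14 and 0.17, Itga4 was the 1 member above 0 where 45.8% of clusters were, and the median was -0.11, beside -0.01 over all clusters.

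**Figure D3:**
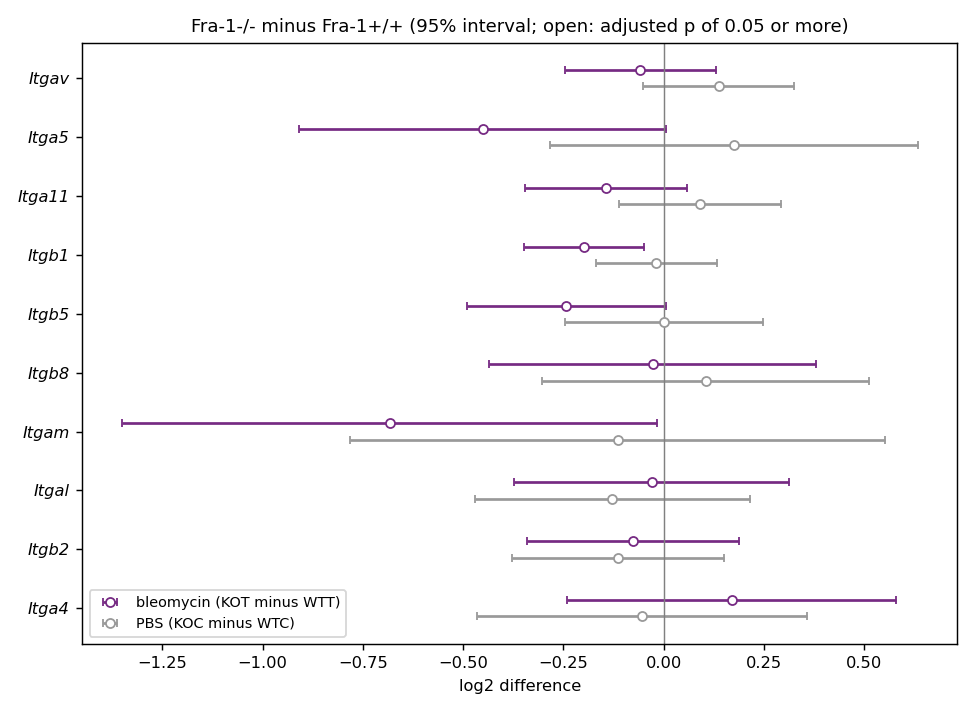
Log2 difference between genotypes for each integrin gene (rows), KOT minus WTT above KOC minus WTC, with 95% intervals; all points are open because no adjusted p was below 0.05 (limma). Only the intervals of Itgb1 (-0.35 to -0.05) and Itgam (-1.35 to -0.02) after bleomycin leave out 0.

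The response to bleomycin was not shown to differ between the genotypes for any of the 10 genes. The difference between responses, (KOT minus KOC) minus (WTT minus WTC), passed for 0 of 10 and for 0% of all clusters with limma, and for 0 of 10 at an unadjusted p below 0.05, where 2.99% of clusters were above 0 and 2.1% below it. Itga5 came nearest, at -0.63 ± 0.30 (95% interval -1.27 to 0.02, adjusted p = 0.963). Itgam had -0.57 ± 0.43 (-1.51 to 0.38, adjusted p = 0.983). With 1 mouse left out, Itga5 ranged over -0.89 (without WTT animal 160) to -0.39 (without WTT animal 164), and Itgam over -0.95 (without WTT animal 160) to -0.29 (without KOT animal 80). Itgb5 (-0.24, -0.59 to 0.11, adjusted p = 0.968) and Itgb8 (-0.13, -0.71 to 0.44, adjusted p = 0.997), which passed between the Fra-1+/+ groups alone, were thus not shown to respond differently. The median over the 10 genes was -0.19, beside -0.01 over all clusters, with 3 genes above 0 (Itga4, Itgal and Itgb2), where 48.6% of clusters were.

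Monocyte and macrophage markers were higher after bleomycin in both genotypes, as Itgam and Itgb2 were, and neutrophil markers were less uniform. Of 10 monocyte and macrophage markers, 8 were higher in KOT than in KOC lungs and 9 in WTT than in WTC lungs, with 0 lower (limma), and their mean level was 9.20 to 9.61 in KOT, 8.48 to 8.62 in KOC, 9.27 to 9.67 in WTT and 8.44 to 8.64 in WTC lungs. Of 10 neutrophil markers, 1 (Mmp8) was higher in KOT than in KOC lungs with limma, 1 at an unadjusted p below 0.05 and 2 by the local-pooled-error test, at a median difference of 0.14. In WTT against WTC lungs, 2 (Mmp8 and Ngp) were higher with limma, 6 at an unadjusted p below 0.05 and 9 by the local-pooled-error test, at a median of 1.24. Their mean level was 7.57 to 8.78 in KOT, 7.69 to 8.13 in KOC, 8.24 to 10.10 in WTT and 7.82 to 7.96 in WTC lungs. Between KOT and WTT lungs, 0 of 10 markers of either list passed with limma, at median differences of -0.11 for the monocyte and macrophage list and -0.88 for the neutrophil list. At an unadjusted p below 0.05, 1 and 3 were lower, and by the local-pooled-error test 0 and 3. The neutrophil mean ranked the 6 bleomycin-treated mice in the same order as Itgam did, with KOT animal 80 (7.57) lowest and WTT animals 161 (9.13) and 164 (10.10) highest, and KOT animal 80 lay below the 3 KOC lungs. The monocyte and macrophage mean gave the same order but for the top 2 mice, WTT animals 161 (9.67) and 164 (9.63). These markers' part in the Itgam values was not tested, and none was at 0 on the log2 scale.

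**Figure D4:**
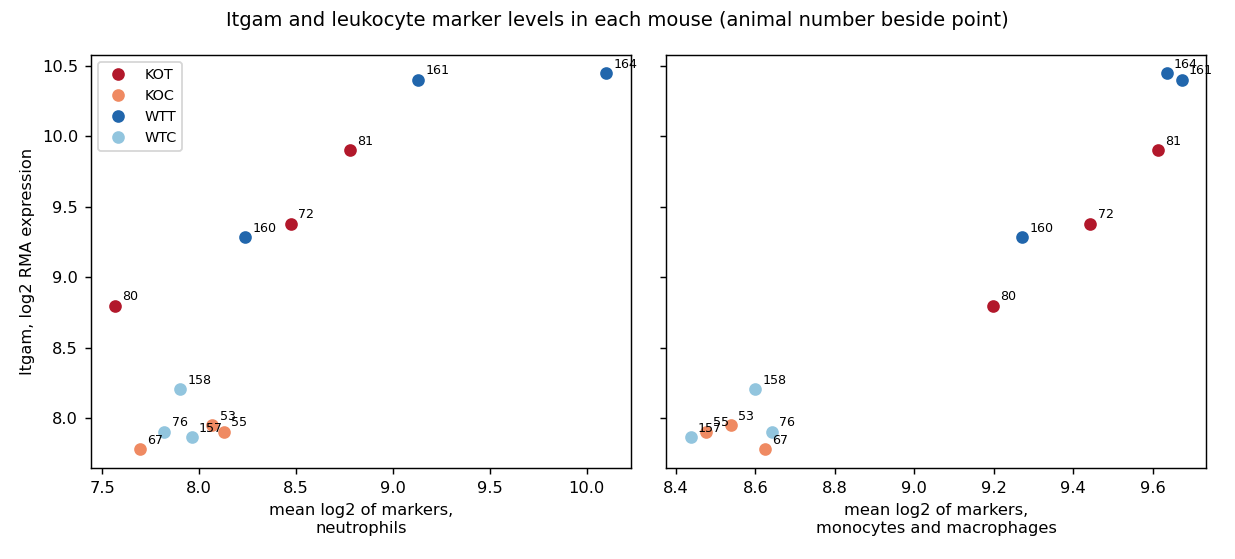
Log2 level of Itgam (y axes) against the mean log2 level of the neutrophil list and of the monocyte and macrophage list (x axes, 1 panel each), 1 point per mouse with its animal number. Bleomycin-treated mice lie above PBS-treated mice, and among them KOT animal 80 is lowest, while farthest right lies WTT animal 164 (10.10) for neutrophils and WTT animal 161 (9.67) for monocytes and macrophages.

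Marker lists of epithelium and endothelium had median differences below 0 after bleomycin, and the number of markers called varied between lists. Of 8 endothelial markers, 7 were lower in KOT against KOC lungs and 6 in WTT against WTC lungs, of 6 alveolar type 1 markers 4 and 4, of 6 alveolar type 2 markers 3 and 4, and of 4 airway secretory markers 1 and 3, with 0 higher in any of these lists (limma). Their median differences were -0.64 and -0.45, -0.80 and -0.97, -0.48 and -0.45, and -0.51 and -1.28. In the same order, the local-pooled-error test called 6 and 1, 4 and 4, 3 and 3, and 2 and 3 markers lower. At an unadjusted p below 0.05, 1 endothelial marker was higher in each genotype and 7 were lower. Of 10 fibroblast and myofibroblast markers, 3 were higher and 2 lower in each genotype after bleomycin, beside Itga11, which passed in neither. Between KOT and WTT lungs, 1 of these 10 markers was higher with limma, where 0.0427% of all clusters were. By the local-pooled-error test 1 was higher (0.555% of all clusters), and at an unadjusted p below 0.05, 2 were higher and 1 lower. T-cell markers had 0 of 9 passing in either genotype with limma and at an unadjusted p below 0.05, and by the local-pooled-error test 1 was lower in WTT lungs. B-cell markers were lower for 0 of 7 genes in KOT against KOC lungs (median -0.25), where 0 passed at an unadjusted p below 0.05 and 1 was lower by the local-pooled-error test, and for 3 of 7 in WTT against WTC lungs (median -1.56), where 5 were lower at an unadjusted p below 0.05 and 7 by the local-pooled-error test. Between KOT and WTT lungs, 0 of the 7 passed with limma, and 4 were higher in KOT lungs at an unadjusted p below 0.05 and 4 by the local-pooled-error test (median 1.03). The difference between responses passed for 0 of the 7 with limma, and for 1 at an unadjusted p below 0.05. The B-cell list was not alone in this. Of the 4 airway secretory markers, 0 passed with limma between KOT and WTT lungs (median 0.52). At an unadjusted p below 0.05, 3 were higher in KOT lungs, and 1 by the local-pooled-error test. Their difference between responses passed for 0 with limma and was higher for 2 at an unadjusted p below 0.05. The part of these marker lists in the integrin values was not tested.

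The remaining integrin subunits, 17 of 17 measured, moved in both directions. In KOT against KOC lungs 3 were higher and 2 lower (7.42% and 7.98% of all clusters). In WTT against WTC lungs 2 were higher and 3 lower (10.2% and 11.3% of all clusters). The medians were -0.09 and -0.01. Itga8, a subunit of interstitial and smooth muscle cells, fell by 1.36 (adjusted p = 0.00129, limma) in Fra-1-/- and by 1.13 (adjusted p = 0.00192) in Fra-1+/+ mice. Itga1, a collagen receptor subunit, fell by 0.57 (adjusted p = 0.00296) and by 0.61 (adjusted p = 0.00143). Itgb4, the laminin receptor subunit of epithelium, rose by 0.59 (adjusted p = 0.00112) and by 0.44 (adjusted p = 0.00289). Itgae, the CD103 subunit of intraepithelial lymphocytes and dendritic cells, rose by 0.96 (adjusted p = 0.00281) and by 0.68 (adjusted p = 0.0117). Itgb6, the epithelial partner of Itgav, had a difference of -0.28 in Fra-1-/- mice (adjusted p = 0.171) and fell by 0.39 in Fra-1+/+ mice (adjusted p = 0.0456), and the difference between responses was 0.11 (adjusted p = 0.996). Itgax, the CD11c partner of Itgb2 on dendritic cells and alveolar macrophages, rose by 0.62 in Fra-1-/- mice (adjusted p = 0.0152), against 0.15 in Fra-1+/+ mice (adjusted p = 0.528), and the difference between responses was 0.47 (adjusted p = 0.963). Itgb4 and Itga1 also stand in the study's tables, so their directions are not independent evidence.

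**Figure D5:**
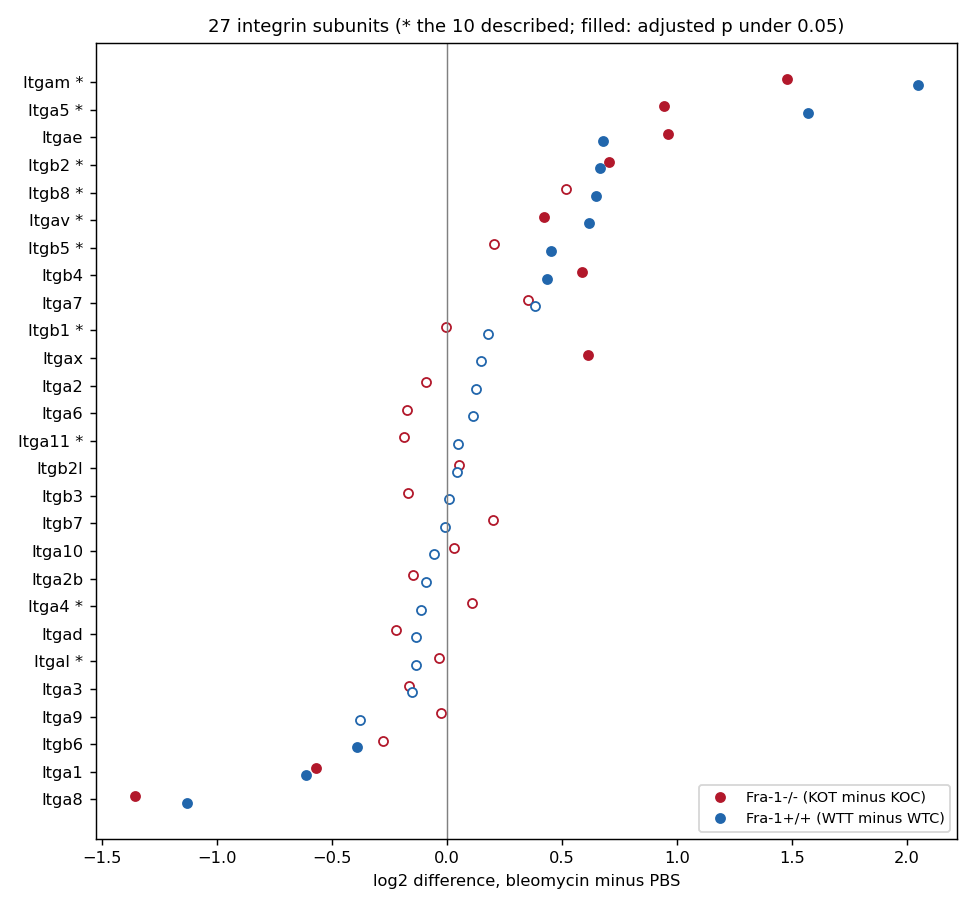
Log2 difference after bleomycin (x axis) for the 10 integrin genes (asterisks) and the 17 other subunits (rows), KOT minus KOC above WTT minus WTC. Rows are ordered by WTT minus WTC, and filled points have an adjusted p below 0.05 (limma). Itgam (1.48 and 2.05) stands at the top and Itga8 (-1.36 and -1.13) at the bottom.

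Of 26 listed integrin ligands, 22 were measured. Of these, 8 were higher and 4 lower in KOT against KOC lungs (7.42% and 7.98% of all clusters). In WTT against WTC lungs, 9 were higher and 4 lower (10.2% and 11.3% of all clusters). Tnc, tenascin C, rose by 2.34 (adjusted p = 0.00042, limma) and by 3.50 (adjusted p = 5.36e-05), and Fn1, fibronectin, the ligand of Itga5 with Itgb1, rose by 1.69 (adjusted p = 0.00017) and by 1.51 (adjusted p = 0.000152). Thbs1, a matrix protein that also activates latent TGF-beta, rose by 1.70 and by 2.03, and Col3a1, a fibrillar collagen, by 0.92 and by 1.48. Of the leukocyte counter-receptors, Vcam1, bound by Itga4, rose by 0.38 (adjusted p = 0.0425) and by 0.43 (adjusted p = 0.0193), Icam2 fell by 0.63 (adjusted p = 0.00209) and by 0.53 (adjusted p = 0.00333), and Icam1 had differences of 0.11 (adjusted p = 0.549) and 0.10 (adjusted p = 0.593). Vitronectin (Vtn), a ligand of Itgav, fell by 0.99 and by 0.60, and nephronectin (Npnt), the ligand of Itga8, by 0.82 and by 0.74.

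Of 30 listed proteins at the cytoplasmic face of integrins, 29 were measured. Of these, 3 were higher and 6 lower in KOT against KOC lungs (7.42% and 7.98% of all clusters). In WTT against WTC lungs, 4 were higher and 4 lower (10.2% and 11.3% of all clusters). The 3 adaptors higher in both genotypes were Fermt3, Parvg and Apbb1ip. They rose by 0.72, 0.66 and 0.63 in Fra-1-/- mice and by 0.56, 0.50 and 0.55 in Fra-1+/+ mice. Rasgrp2, on the same list, had -0.29 in Fra-1-/- mice (adjusted p = 0.339, limma) and fell by 0.63 in Fra-1+/+ mice (adjusted p = 0.0302). Bcar1, a docking protein of focal adhesions, had 0.08 (adjusted p = 0.495, limma) in Fra-1-/- mice and rose by 0.31 (adjusted p = 0.00892) in Fra-1+/+ mice, with a difference between responses of -0.23 (adjusted p = 0.963). Lims2, Tns1 and Tln2, which tie integrins to actin, fell by 0.36, 0.60 and 0.47 in Fra-1-/- mice and by 0.62, 0.48 and 0.49 in Fra-1+/+ mice. In the 2 genotype comparisons 0 of these subunits, ligands or adaptors passed with limma or the local-pooled-error test. In KOT against WTT lungs, at an unadjusted p below 0.05, 2 subunits, 0 ligands and 1 adaptor were higher (4.27% of all clusters). In the other direction, 1, 3 and 0 were lower (6.32%). In KOC against WTC lungs, 0, 3 and 0 were higher (2.94%) and 2, 2 and 0 lower (6.88%).

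Over the 12 arrays, each gene's closest clusters by Pearson's r are given as a description, since the 4 group means shape every such value. Itgam lay closest to Dpep2 (0.993), Tlr13 (0.987) and Arg1 (0.986), and Itga5 to Pdlim7 (0.987), Pgf (0.985) and Lrrc59 (0.983). Itgav lay closest to Fblim1 (0.978), Col8a1 (0.977) and Shc1 (0.976), and Itgb2 to Clec5a (0.975) and Snx20 (0.975). The genes that did not pass had looser neighbours, such as Tmem131l for Itga4 (0.933), Tollip for Itga11 (0.891) and Usp24 for Itgal (0.872). Itga5 and Itgam, a matrix and a leukocyte subunit, had r = 0.98 with each other over the 12 arrays, and 0.92 for their deviations from the group means. Of all pairs among the members, this pair was highest by both measures. For the deviations, Itga5 ranged from -0.69 with Itgb5 to 0.61 with Itgb2 over the other members.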

How the data were processed

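Total lung RNA of 12 mice (3 per group, 1 array each) had been labelled with biotin and hybridised to MoGene 1.0ST v1 arrays. With Affymetrix Power Tools (version not given in the sources used here), the authors quantile-normalized probe signals across the arrays and ran RMA, whose median polish gives 1 value per transcript cluster, and they deposited log2 values. The authors' filter on detection above background was not used here, and no further normalization was applied. RT-qPCR was not analysed here. Groups came from the labels, and 0 sample columns were left unmapped.

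The 23410 clusters with a gene symbol were tested in R 4.3.3 with limma 3.58.1 (lmFit and eBayes, 1 fit over the 4 groups, 8 residual degrees of freedom before moderation), with Benjamini-Hochberg adjustment over all of them and a threshold of 0.05. An exact permutation test of 3 against 3 cannot give a two-sided p below 0.1, so none was used. The fit was also run on simulated normal values, drawn independently for each cluster with the same variance in every group. That run lacks correlation between genes and a wider spread after bleomycin, so it cannot vouch for the fit to these arrays. The local-pooled-error test was kept as an alternative because many false calls had been reported for it earlier in simulated data. Genes were named from clusters with 1 symbol, which 21789 of 35556 clusters have, and Itgam also lies in 3 clusters shared with Rpl35, which were not used. The members and lists were chosen with earlier results of these data known. Outside the members, the text gives by rule, up to 6 other subunits with the smallest p among those past the threshold in WTT against WTC lungs, up to 2 more from KOT against KOC lungs, and up to 4 ligands and 4 adaptors. Vcam1, Icam1, Icam2, Vtn, Npnt, Fermt3, Parvg, Apbb1ip and Rasgrp2 were chosen outside it, after their values were seen.

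Alternatives were the study's local-pooled-error test, rewritten here from its description (100 bins, a spline with 10 degrees of freedom, adjusted p below 0.01), array weights (with statmod 1.5.0), cyclic loess, equal array medians, robust moderation with a trend, all clusters, bright clusters only (a group mean of at least 6), 6-array fits, a term for animal numbers under 100, and leaving out each mouse. Promoters are RefSeq's, build GRCm38.p6; the build behind the array annotation is not given in the sources used here. The number of arrays limits the precision.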

Additional observations from a re-analysis of the deposited data

How the results depend on the processing

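The 10 differences called with limma kept their direction under every alternative run. Of 50 differences (10 genes in 5 comparisons), 18 changed sign under at least 1 alternative, and none of these was called or exceeded 0.17 in size. The number of members called was 4 in KOT against KOC and 6 in WTT against WTC lungs, and ranged over 3 to 4 and 4 to 6 when 1 mouse was left out. It was 6 and 6 with array weights, 4 and 5 over all clusters, 5 and 4 in 6-array fits and 3 and 4 at an adjusted p below 0.01. Between KOT and WTT the count was 0 with limma and 1 by the local-pooled-error test (LPE), and it was 0 in the other genotype comparisons. No paired analysis was possible because the numbers in the labels are animal numbers that no 2 groups share.

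Changes of sign had these values. By LPE, Itgb1 was 0.014 in KOT minus KOC and Itgb8 -0.011 in KOC minus WTC. With array weights, Itgb1 was 0.039 and Itgal 0.056 in KOT minus KOC, Itgb5 -0.013 in KOC minus WTC, Itgal 0.032 in KOT minus WTT and Itgb2 -0.030 in the difference between responses. With cyclic loess, Itgb5 was -0.034 in KOC minus WTC and Itgb8 0.000183 in KOT minus WTT. With equal medians, Itgb1 was 0.028 in KOC minus WTC and Itgb2 -0.010 in the difference between responses. With the animal-number term, Itga11 was -0.0048 and Itga4 0.067 in WTT minus WTC, Itgb8 -0.21 in KOC minus WTC, and Itgav 0.15, Itga11 0.012 and Itga4 -0.37 in KOT minus WTT. Only WTC animal 76 differs in number class from the rest of its group, so that mouse alone sets this term. The WTT minus WTC differences under the term are those without that mouse, and the term cannot separate genotype from animal number.

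Leaving out 1 mouse gave sign changes over these ranges. In WTT minus WTC, Itga11 ranged over -0.0048 to 0.13 and Itga4 over -0.35 to 0.067. In KOT minus KOC, Itga4 ranged over -0.010 to 0.27, Itgal over -0.092 to 0.054 and Itgb1 over -0.030 to 0.024. In KOC minus WTC, Itga4 ranged over -0.29 to 0.13, Itgb1 over -0.066 to 0.023, Itgb5 over -0.016 to 0.033 and Itgb8 over -0.050 to 0.26. In KOT minus WTT, Itgal ranged over -0.16 to 0.13, Itgav over -0.11 to 0.000387, Itgb2 over -0.20 to 0.016 and Itgb8 over -0.19 to 0.11. In the difference between responses, Itgal ranged over -0.034 to 0.26, Itgb2 over -0.086 to 0.13 and Itgb8 over -0.30 to 0.023. The cause of these changes was not tested.

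With 3 mice per group, the intervals in the text set the limits of each comparison. All Fra-1-/- mice and WTC animal 76 have animal numbers under 100 and the other Fra-1+/+ mice have higher ones, so genotype and number cannot be told apart in the bleomycin groups. No second cluster per gene was tried, since each gene had 1, and neither LPE nor the 6-array fits give a difference between responses.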
